A study of Mus musculus with 27 samples.

Results

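The cell-cycle genes described here are 52 genes of DNA replication and cell division, taken by symbol from the 41388 gene identifiers of the table. They were grouped by role into 23 S-phase members, 26 mitotic members and 3 members that control the G1 phase (Ccnd1, Cdkn1a and Cdkn2c). All 52 passed the filter on low counts, which kept 12612 genes for testing. RNA came from macrophages sorted from the dura of B6 mice with the genotype Rag1 ko, so that lymphocytes of the host are lacking, at an age of 16 to 19 weeks. The 7 groups were mice at steady state, without T cells (6 libraries, 4 female and 2 male), and mice sampled 6.5 weeks after reconstitution with T cells. The transferred T cells were total B6 T cells (5 libraries, 4 female and 1 male), IL6Ra ko/IL21R ko T cells (7, 3 female and 4 male), IL22 ko T cells (3, 2 female and 1 male), or Tbet ko, IFNg ko or IL-17AF ko T cells (2 female libraries each). The knockouts were carried by the T cells and not by the macrophages, and every group, the controls included, lacked Rag1. In a bulk library, fewer cycling cells and less RNA per cycling cell cannot be told apart.

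A cell that divides first copies its DNA in S phase and later separates the copies in mitosis. Cyclin D1 with its partner kinases releases E2F transcription factors in G1, which switch on genes for the replicative helicase (the Mcm proteins), the sliding clamp Pcna and enzymes that make nucleotides (Rrm1, Rrm2, Tyms, Tk1). Many mitotic genes are switched on later, often through promoters that carry a cell-cycle homology region (CHR) next to CCAAT boxes. Cdkn1a (p21) and Cdkn2c (p18) hold cyclin-dependent kinases in check. Border macrophages are long-lived and can divide where they reside, while monocytes that enter a tissue come from dividing cells of the bone marrow.

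The promoters of 3 S-phase and 3 mitotic members are printed because they show motifs that were found at different rates in the 2 roles, and because their genes recur in the results. Each is the 250 bases before a RefSeq start site in the GRCm38.p6 assembly, 5′ to 3′ on the strand of the gene, and none of them overlaps an annotated exon. Capitals mark matches, on either strand, to an E2F motif, a CHR or a CCAAT box. The E2F motif was searched as TTCCCGC in its first form, TTGGCGC in the second form, TTCGCGC in the third form and TTGCCGC in the fourth. The CHR was searched as TTTGAA in one form and TTCGAA in the other, and the CCAAT box by the letters of its name. Motifs may overlap, as the E2F matches of Mcm6 and Mcm5 and the CCAAT box and E2F match of E2f8 do. Mcm6 (chr1:128359706-128359955, minus strand) and Mcm5 (chr8:75109259-75109508, plus strand) encode helicase subunits, and E2f8 (chr7:48881597-48881846, minus strand) an E2F repressor. Ccnb2 (chr9:70421555-70421804, minus strand) encodes a mitotic cyclin, Top2a (chr11:99024190-99024439, minus strand) the topoisomerase that untangles sister chromatids, and Mki67 (chr7:135716380-135716629, minus strand) the Ki-67 protein that coats mitotic chromosomes.
Mcm6: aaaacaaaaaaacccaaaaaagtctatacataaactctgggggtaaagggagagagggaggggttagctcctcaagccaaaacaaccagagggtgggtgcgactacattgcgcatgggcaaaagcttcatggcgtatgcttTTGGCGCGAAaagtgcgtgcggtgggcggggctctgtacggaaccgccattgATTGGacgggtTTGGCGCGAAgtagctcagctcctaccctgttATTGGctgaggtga
Mcm5: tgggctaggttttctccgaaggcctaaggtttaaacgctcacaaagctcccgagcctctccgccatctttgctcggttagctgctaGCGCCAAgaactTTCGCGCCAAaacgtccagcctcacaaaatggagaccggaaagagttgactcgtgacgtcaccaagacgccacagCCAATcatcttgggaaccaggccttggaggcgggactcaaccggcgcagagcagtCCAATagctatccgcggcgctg
E2f8: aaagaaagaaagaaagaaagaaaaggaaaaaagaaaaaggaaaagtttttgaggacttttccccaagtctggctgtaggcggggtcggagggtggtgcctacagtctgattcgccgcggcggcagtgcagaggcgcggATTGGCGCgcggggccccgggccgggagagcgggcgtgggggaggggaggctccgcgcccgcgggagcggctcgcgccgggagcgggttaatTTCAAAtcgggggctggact
Ccnb2: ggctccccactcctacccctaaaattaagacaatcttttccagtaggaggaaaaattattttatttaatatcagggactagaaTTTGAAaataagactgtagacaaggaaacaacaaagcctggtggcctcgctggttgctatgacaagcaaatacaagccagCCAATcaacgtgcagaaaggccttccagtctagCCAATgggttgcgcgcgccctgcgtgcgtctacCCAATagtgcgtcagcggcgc
Top2a: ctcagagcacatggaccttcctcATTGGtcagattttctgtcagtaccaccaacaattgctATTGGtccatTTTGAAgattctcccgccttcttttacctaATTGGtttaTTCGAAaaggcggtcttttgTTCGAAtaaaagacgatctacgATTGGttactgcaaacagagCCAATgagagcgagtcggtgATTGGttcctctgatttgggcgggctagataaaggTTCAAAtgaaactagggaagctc
Mki67: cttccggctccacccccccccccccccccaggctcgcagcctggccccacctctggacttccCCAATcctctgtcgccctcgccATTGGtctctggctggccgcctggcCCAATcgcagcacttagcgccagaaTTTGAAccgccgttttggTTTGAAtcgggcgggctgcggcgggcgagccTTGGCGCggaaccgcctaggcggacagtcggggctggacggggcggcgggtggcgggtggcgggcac

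The Mcm6 stretch held 4 E2F matches, 2 CCAAT boxes and no CHR, and the Mcm5 stretch 3 E2F matches and 2 CCAAT boxes. The Top2a stretch held 4 CHR matches and 6 CCAAT boxes and no E2F match, and the Ccnb2 stretch 1 CHR match, 3 CCAAT boxes and no E2F match. The other stretches were mixed: E2f8 had 1 match to each motif, and Mki67 had 1 E2F match beside 2 CHR matches and 3 CCAAT boxes. Over the full RefSeq window, from 250 bases before to 50 bases after the start site, 18 of the 23 S-phase members, 22 of the 26 mitotic members and 2 of the 3 G1 members had an entry, and the first one listed was used. An E2F motif was in 11 of 18 S-phase windows (61.1%) and 5 of 22 mitotic windows (22.7%), against 17.2% of the windows of 9787 tested genes. A CHR was in 4 of 18 S-phase windows (22.2%) and 18 of 22 mitotic windows (81.8%), against 13.9% of all. The Ccnb1 window had no CHR match, 1 E2F match and 2 CCAAT boxes. All 18 mitotic windows with a CHR also held a CCAAT box, a pair found in 5.84% of all windows. A match is a run of letters and was not tested as a binding site.

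Every library expressed the macrophage genes Csf1r (from 2688 to 5750 CPM, counts scaled to a common library size by TMM) and Adgre1 (from 825 to 2614 CPM). The T-cell receptor genes Cd3e, Cd3g and Trac had at most 14, 24 and 12 counts in a library, with a median of 0. The T-cell markers Trbc1, Trbc2 and Cd5 were also low, with at most 4, 15 and 14 counts. Higher maxima were found for Cd8b1 (43), Lck (59), Cd3d (70), Cd8a (76), Cd28 (182) and Cd4 (3067 counts). Klrk1, a marker of natural killer cells, reached 1321 counts. The part of lymphocytes in the members' differences was not tested. Library totals ran from 6902602 to 19966749 counts. The share of counts from 83 ribosomal protein genes divided the libraries into 3 sets that the labels do not mention. Set A (from 2.98% to 3.66%) held 4 no T-cell and 3 total T-cell libraries. Set B (from 1.25% to 1.76%) held the other 2 no T-cell and 2 total T-cell libraries, 6 IL6Ra ko/IL21R ko libraries and the 3 IL22 ko libraries. Set C (from 0.815% to 0.959%) held all Tbet ko, IFNg ko and IL-17AF ko libraries and 1 IL6Ra ko/IL21R ko library (M4). The Tbet ko, IFNg ko and IL-17AF ko groups share no set with either control, and set C is joined to the other sets by library M4 alone. Libraries are named by sex and a running number within the group. Nothing in the labels ties each library to its own animal. The column names of the 2 Tbet ko libraries share a number and that of M4 runs several numbers together, and what these mark is not stated. Across genes whose summed count reached 20, the Tbet ko libraries differed by 11.7 times the sampling noise (chi-square per degree of freedom), the fourth lowest of 52 pairs within groups, which ran from 8.97 to 137.9, so they were counted as separate libraries and the p-values rest on the variation among libraries, which may be technical.

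The 49 S-phase and mitotic members together made up between 0.0626% and 0.118% of all counts in each library. Per kilobase of exon, the G1 genes Cdkn1a (172 CPM per kb) and Ccnd1 (49.7) and the S-phase genes Pcna (42.2), Mcm3 (17.8), Mcm6 (12.8) and Mcm4 (12.3) had the highest mean levels over the 27 libraries. Esco2 (0.298), Cenpe (0.340) and Brca1 (0.344) had the lowest. The mean was at least 1 CPM per kb for 41 of the 52 members. The median CPM, not divided by length, was under 10 for 27 members, from 10 to 50 for 19 and over 50 for 6, so most members rest on few counts. Ccne2, Esco2, Rad51ap1, Bub1 and Ccnb1 had 0 counts in at least 1 library. The library kit did not keep strand, and 10 members share over 10% of their exonic bases with another gene, among them Gins2 (67.3%), Kif20a (29.3%), Ccnd1 (23.4%) and Ube2c (22.8%). Reads from those bases cannot be assigned to one gene.

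The S-phase level of a library was taken as the mean log2 CPM of its 23 S-phase members, and the mitotic level likewise over 26 members. The S-phase level was 3.65 ± 0.352 (SD, n = 6) without T cells, 3.54 ± 0.209 (n = 5) with total T cells, 3.34 ± 0.259 (n = 7) with IL6Ra ko/IL21R ko and 3.61 ± 0.182 (n = 3) with IL22 ko T cells. It was 2.74 and 2.85 in the Tbet ko libraries, 2.29 and 3.34 in the IFNg ko libraries, and 3.06 and 3.42 in the IL-17AF ko libraries. The Tbet ko libraries lay below every library of the no T-cell, total T-cell, IL6Ra ko/IL21R ko, IL22 ko and IL-17AF ko groups, the IFNg ko libraries lay below the IL22 ko libraries, and the other pairs of groups overlapped. The mitotic level was 3.39 ± 0.408 (n = 6) without T cells, 2.93 ± 0.416 (n = 5) with total T cells, 3.04 ± 0.252 (n = 7) with IL6Ra ko/IL21R ko and 2.93 ± 0.447 (n = 3) with IL22 ko T cells. The Tbet ko libraries (2.18 and 2.21) were again below all libraries of those 5 groups, while the IFNg ko libraries lay at 1.87 and 3.21 and the IL-17AF ko libraries at 2.56 and 3.57. On both scales the 2 IFNg ko libraries lay further apart than any 2 libraries of another group.

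**Figure D1:**
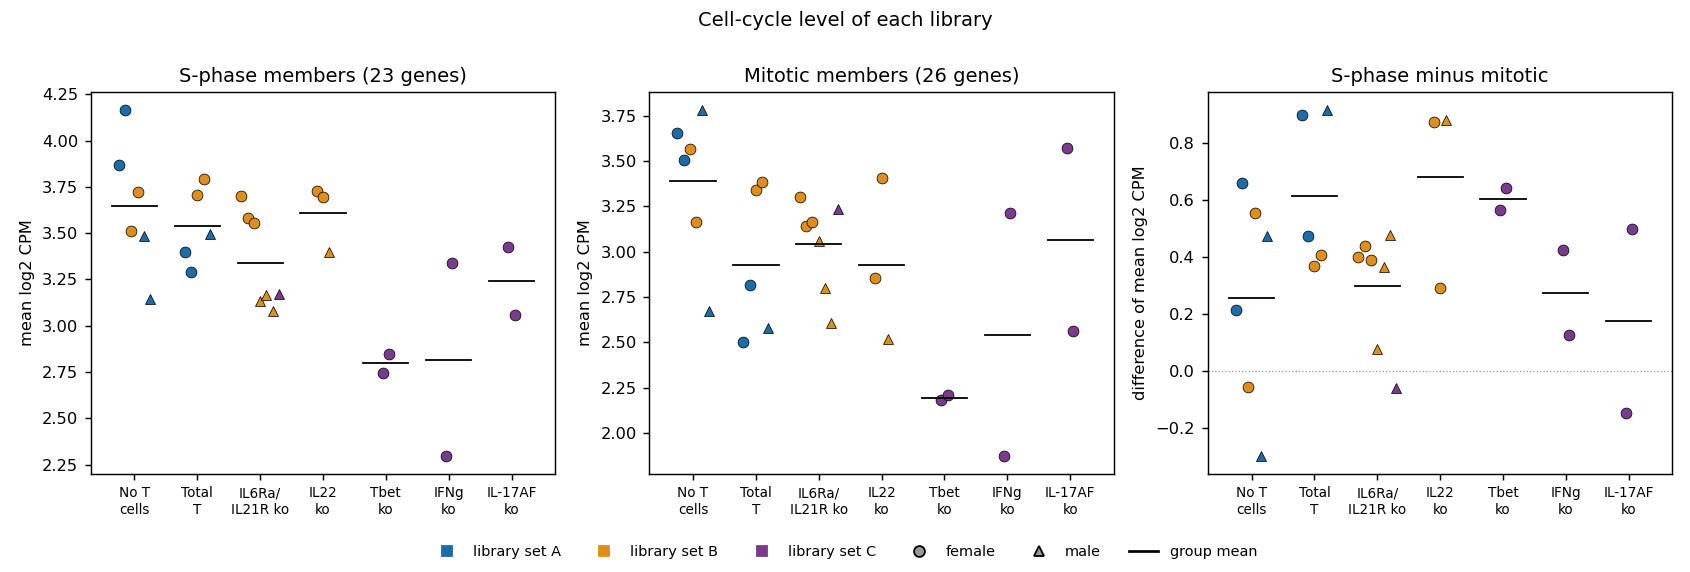
Mean log2 CPM of the 23 S-phase members (left) and the 26 mitotic members (middle) and their difference (right), 1 symbol per library, with colours for the library sets, circles for females, triangles for males and lines for group means. Both Tbet ko libraries sit at the bottom of the left and middle panels beside IFNg ko F1, and the differences on the right overlap between most groups.

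The S-phase level exceeded the mitotic level in 23 of the 27 libraries. The levels average different genes and are not divided by gene length, so the sign of their difference depends on the genes listed. The difference was 0.256 ± 0.376 without T cells (from -0.301 to 0.657), 0.611 ± 0.272 with total T cells (from 0.367 to 0.915), 0.297 ± 0.206 with IL6Ra ko/IL21R ko (from -0.0622 to 0.475) and 0.681 ± 0.338 with IL22 ko T cells (from 0.290 to 0.880). It was 0.563 and 0.639 in the Tbet ko, 0.124 and 0.422 in the IFNg ko and -0.147 and 0.498 in the IL-17AF ko libraries. The Tbet ko libraries lay above those of the IL6Ra ko/IL21R ko, IFNg ko and IL-17AF ko groups, and every other pair of groups overlapped. Over the members whose normalized count averaged 50 or more, an alternative chosen after the data were seen, the group means rose to between 0.723 and 1.2, and that of the IFNg ko group (1.14) was above that of the Tbet ko group (1.12). Within set A, the mitotic level was 3.41 ± 0.50 (n = 4) without T cells and 2.63 ± 0.165 (n = 3) with total T cells, while within set B it was 3.37 and 3.36 (n = 2 each).

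The library without T cells that had the highest mitotic level (M1, 3.78) also had the highest sum of early myeloid markers. Its 7 early myeloid genes summed to 1263 CPM, led by Mpo (683 CPM) and Elane (298 CPM), granule enzymes of bone marrow precursors, against at most 289 CPM in any other library. Its E2f8 level, 18.7 CPM, was the highest of any library. The part of such precursors in the levels was not tested. Without M1, 9 members were called between total T cells and no T cells instead of 11.

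The S-phase and mitotic levels of a library share its depth, set and scaling. Across the 27 libraries, the mean S-phase and mean mitotic levels had a correlation of 0.770. Within the sets it was 0.641 (A, n = 7), 0.610 (B, n = 13) and 0.934 (C, n = 7). Single members followed one another less, with a median correlation of 0.333 between pairs of S-phase members, 0.367 between mitotic pairs and 0.310 between an S-phase and a mitotic member. Over the 27 libraries, Top2a (0.893), Ccna2 (0.858) and Ube2c (0.821) had the highest correlation with the mean of the mitotic members, and Mki67 (-0.0303) and Cenpf (0.188) the lowest. Within the sets, Mki67 was at 0.5996 (A), 0.254 (B) and 0.894 (C), so its value over all libraries does not describe single sets. Cenpf was at 0.833 (A), -0.0251 (B) and 0.361 (C). Among S-phase members over the 27 libraries, Mcm5 (0.845), Rrm2 (0.812) and Tk1 (0.786) were highest, and Ccne1 (0.00283), Brca1 (0.0475) and Cdc6 (0.112) lowest. These are descriptions over libraries of all groups.

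Total T cells against no T cells asks how the macrophages differ when a full T-cell compartment is present. The helicase genes Mcm2, Mcm6 and Mcm7, the mitotic genes Prc1, Kif23, Cenpf, Cenpa and Cdc20, the G1 cyclin Ccnd1 and the brake Cdkn2c fell with total T cells, and the brake Cdkn1a rose. By edgeR's quasi-likelihood test with Benjamini-Hochberg adjustment over all genes (adjusted p, q), 11 members were called at q under 0.05, 1 higher and 10 lower, against 21.2% of all genes tested (11.7% higher and 9.47% lower). The members' share of calls, 21.2%, was that of the background, and their direction was less even. Of the S-phase members 3 of 23 fell, of the mitotic members 5 of 26 fell, and all 3 G1 members were called. The median log2 fold change was -0.19 for S-phase members (19 of 23 below 0) and -0.45 for mitotic members (22 of 26 below 0), beside -0.02 for all genes tested.

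Mcm6, a helicase subunit (ENSMUSG00000026355, chromosome 1, 128331590 to 128359664, minus strand), had from 47.2 to 97.1 CPM without T cells, with a median of 80.9. With total T cells it had 31.3, 42.8, 60.2, 57.4 and 37.0 CPM. The groups overlapped only through the lowest library without T cells, and the log2 fold change was -0.80 ± 0.17 (SE, q = 0.00166). Its partner Mcm7 (ENSMUSG00000029730, chromosome 5, 138164583 to 138172422, minus strand) had from 22.6 to 53.9 CPM (median 39.9) without T cells and 19.7, 19.7, 27.7, 28.2 and 20.4 CPM with them. It fell by 0.81 ± 0.16 on the log2 scale (q = 0.00105). Mcm2 also fell, by 0.67 ± 0.19 (q = 0.0156), while Mcm3, Mcm4 and Mcm5 were not called. Pcna, the sliding clamp, had from 102 to 131 CPM without and from 106 to 142 CPM with T cells, a difference of 0.04 ± 0.10 (q = 0.798).

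Ccnd1, which encodes cyclin D1 (ENSMUSG00000070348, chromosome 7, 144929931 to 144939925, minus strand), had from 204 to 309 CPM (median 251) without T cells. With total T cells it had 82.9, 133, 208, 159 and 136 CPM, so a single library, F3, reached the range of the controls. It fell by 0.87 ± 0.20 (q = 0.00276). Cdkn1a, a brake on cyclin-dependent kinases (ENSMUSG00000023067, chromosome 17, 29090976 to 29100727, plus strand), had from 414 to 760 CPM (median 581) without T cells and 973, 788, 977, 804 and 940 CPM with total T cells. The groups did not overlap, and it rose by 0.58 ± 0.18 (q = 0.023). Cdkn2c, the other brake, fell by 0.48 ± 0.15 (q = 0.0199).

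Among mitotic members, Prc1, which bundles spindle microtubules, had from 7.65 to 16.1 CPM (median 12.99) without T cells and 7.94, 5.18, 6.87, 7.70 and 1.82 CPM with them, and fell by 1.24 ± 0.33 (q = 0.0094). Kif23, a motor of cytokinesis, fell by 1.12 ± 0.31 (q = 0.0108), the kinetochore protein Cenpf by 1.76 ± 0.53 (q = 0.0193), the centromeric histone Cenpa by 0.78 ± 0.24 (q = 0.0226) and the anaphase activator Cdc20 by 0.84 ± 0.29 (q = 0.0414). Cenpf was low, with 0.271, 2.10, 3.44, 4.31 and 1.93 CPM with total T cells. The usual proliferation markers were not called: Top2a differed by -0.33 ± 0.26 (q = 0.394), Cdk1 by -0.36 ± 0.28 (q = 0.403), Ccnb1 by -0.57 ± 0.73 (q = 0.629) and Mki67 by -0.35 ± 0.55 (q = 0.706). Rrm2, a subunit of the enzyme that makes deoxynucleotides, differed by -0.38 ± 0.30 (q = 0.405).

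The comparison was also made within the library sets, and the difference between the sets was not tested. Within set A, 6 members were called (11.5%, against 16.9% of all genes), 1 higher and 5 lower, with Mcm6 at -1.03 (q = 0.0119), Mcm7 at -1.01 (q = 0.0223), Ccnd1 at -1.06 (q = 0.00996), Prc1 at -1.60 (q = 0.0475) and Cdkn1a at 0.78 (q = 0.0127). Within set B, with 2 libraries a group, none was called (against 0.729% of all genes, 92, with 1943 at an unadjusted p under 0.05), with Mcm6 at -0.53 (q = 0.158), Mcm7 at -0.52 (q = 0.23), Ccnd1 at -0.65 (q = 0.191) and Cdkn1a at 0.24 (q = 0.694). With the set as a term in the model 12 members were called (23.1%, against 27.2% of all genes). Without total T-cell library M1, 5 members were called (Mcm2, Mcm6, Mcm7, Prc1 and Ccnd1). Markers of other macrophage states moved with the same comparison. Of 12 border macrophage markers 10 fell and none rose, and their summed level was from 9717 to 13984 CPM without and from 2168 to 8154 CPM with total T cells. All 10 monocyte-derived cell markers rose, from a sum of 735 to 1361 CPM to one of 1970 to 9511 CPM. Their part in the differences of the members was not tested.

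**Figure D2:**
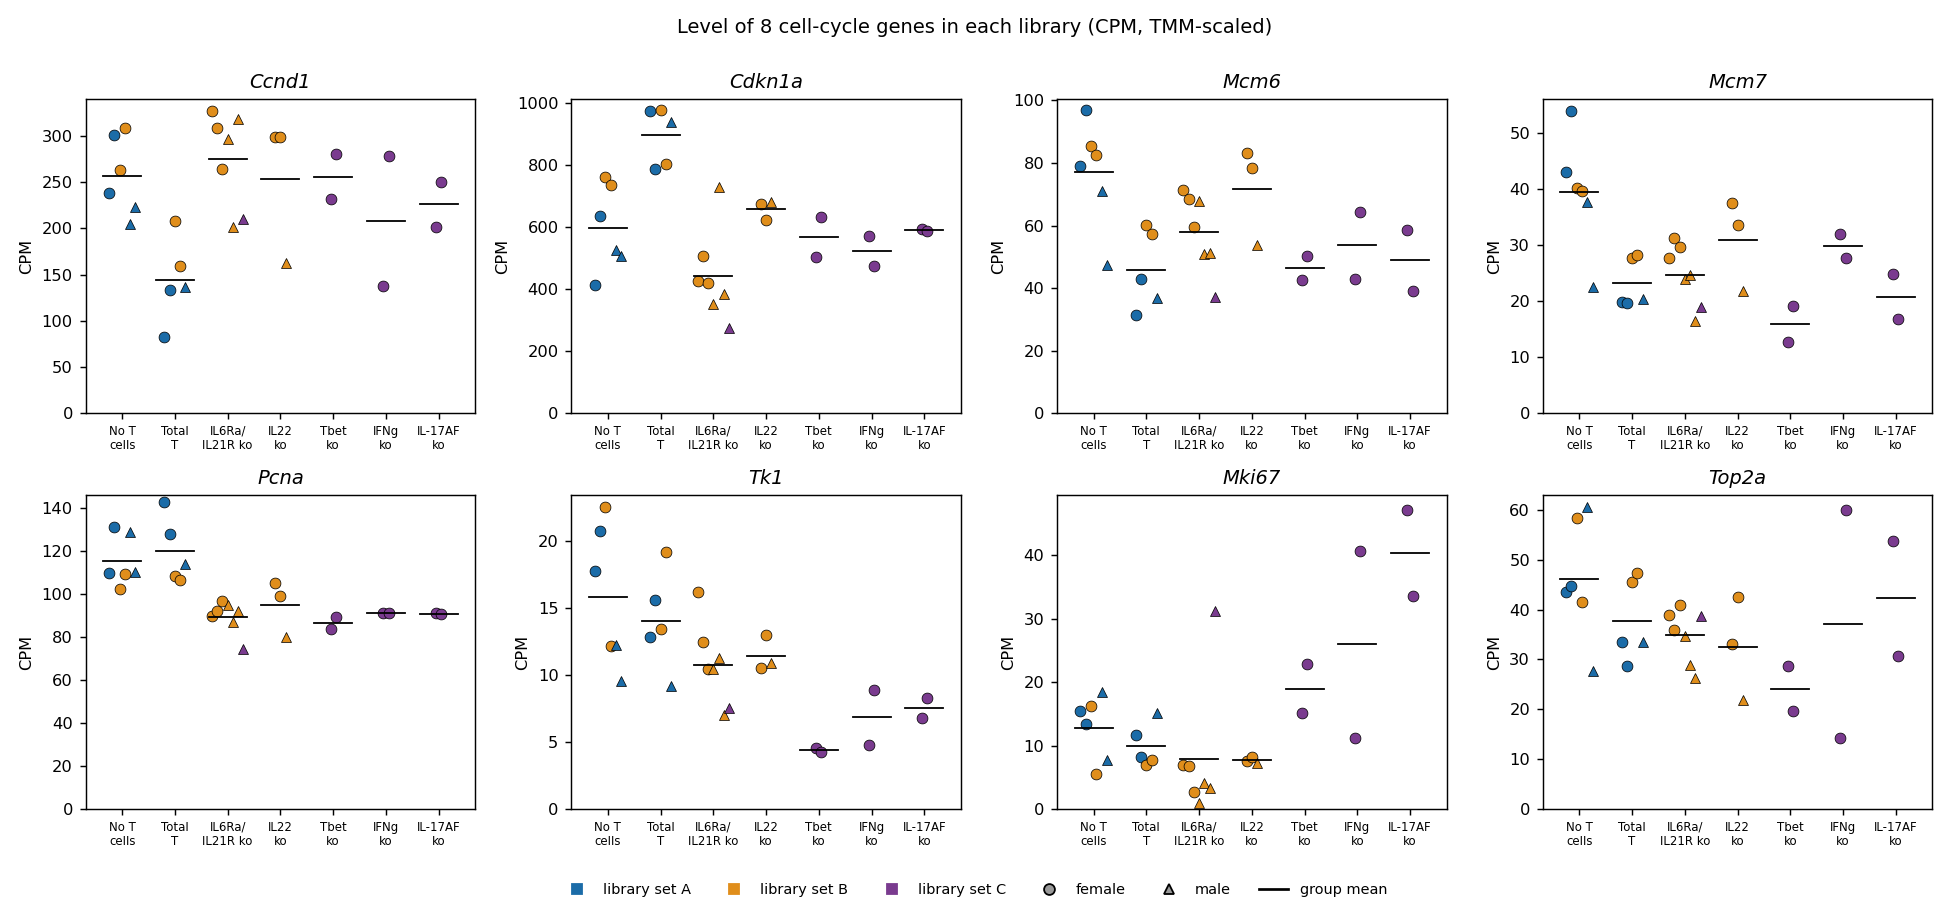
CPM of 8 members in each library, with colours for the library sets, circles for females, triangles for males and lines for group means. Ccnd1, Mcm6 and Mcm7 are lower and Cdkn1a is higher in the total T-cell libraries than in most libraries without T cells. The highest levels of Mki67 are in set C, though not all set C libraries lie above the others.

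In the comparison of IL6Ra ko/IL21R ko with total T cells, the G1 genes differed in the direction of the levels without T cells. Cdkn1a went further in M1, M3 and M4 (353, 385 and 276 CPM), below every library without T cells (lowest 414 CPM). Ccnd1 was higher and Cdkn1a lower than with total T cells. In all, 7 members were called, 5 higher and 2 lower, against 28.3% of all genes (13.2% higher and 15.2% lower, or 1660 and 1915 genes, which become 2105 and 1622 with the length correction described later for set C), so the share of members, 13.5%, was below the background. Ccnd1 had from 201 to 327 CPM (median 296) and rose by 1.06 ± 0.20 (q = 0.000325), with total T-cell library F3 inside the range. Cdkn1a had from 276 to 729 CPM (median 420), below every total T-cell library, and fell by 0.99 ± 0.18 (q = 0.000233). Cdkn2c rose by 0.47 ± 0.15 (q = 0.018).

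Cdk1, the mitotic kinase, had from 9.21 to 22.6 CPM (median 13.3) against 9.84, 5.93, 13.2, 14.1 and 6.65 CPM, and rose by 0.90 ± 0.29 (q = 0.0218). Cenpf rose by 1.70 ± 0.56 (q = 0.0234) and Mcm6 by 0.51 ± 0.17 (q = 0.0273). Pcna had from 74.3 to 96.4 CPM, below every total T-cell library, and fell by 0.39 ± 0.10 (q = 0.00379). Mki67 (-0.51 ± 0.55, q = 0.53), Top2a (-0.01 ± 0.26, q = 0.978), Rrm2 (-0.49 ± 0.30, q = 0.245) and Ccnb1 (0.04 ± 0.72, q = 0.976) were not called. The median was -0.06 over S-phase and 0.05 over mitotic members, beside 0.03 for all genes tested. Within set B, 2 members were called (3.85%, against 6.61% of all genes): Ccnd1 (0.83, q = 0.0328) and Cdkn1a (-0.97, q = 0.0148). Without total T-cell library M1, 4 were called. In set B, Cdk1 was at 0.41 (q = 0.542), Cenpf at 0.72 (q = 0.59), Mcm6 at 0.23 (q = 0.439) and Pcna at -0.15 (q = 0.514). In this comparison 10 of 12 border macrophage markers rose and all 10 monocyte-derived markers fell. Of the early myeloid markers 6 of 7 fell (median -7.99, sums from 2.61 to 26.2 CPM against 33.8 to 209 CPM), as did all 6 tested neutrophil markers (median -7.80, sums from 69.5 to 99.0 CPM against 104 to 431 CPM). Their part in the members' differences was not tested.

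Against mice without T cells, no member was called with IL6Ra ko/IL21R ko T cells, where 1.19% of all genes (150, with 1361 at an unadjusted p under 0.05) were called. The medians were -0.31 for S-phase and -0.38 for mitotic members. The members with the lowest q were Pcna, at -0.35 ± 0.09 (q = 0.0622), Mcm7, at -0.56 ± 0.15 (q = 0.0731), and Rrm2, at -0.87 ± 0.28 (q = 0.176). Ccnd1 differed by 0.19 ± 0.18 (q = 0.761), Cdkn1a by -0.41 ± 0.17 (q = 0.366) and Mcm6 by -0.29 ± 0.16 (q = 0.518). Cdk1 differed by 0.55 ± 0.27 (q = 0.479), Top2a by -0.34 ± 0.24 (q = 0.628), Mki67 by -0.86 ± 0.52 (q = 0.582) and Ccnb1 by -0.54 ± 0.67 (q = 0.831). DESeq2 called 2 members in this comparison.

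With IL22 ko T cells no member was called against total T cells, where 0.0872% of all genes were called (0.0634% higher and 0.0238% lower; 11, with 2192 at an unadjusted p under 0.05), although DESeq2 called 750 genes and 2 members, and edgeR called 2 members without total T-cell library F3 or F4. Ccnd1 had 299, 298 and 162 CPM and Mcm6 had 83.2, 78.4 and 53.9 CPM. In both the male library was the lowest, and the females lay above every total T-cell library. Their log2 fold changes against total T cells were 0.83 ± 0.23 (q = 0.0668) and 0.70 ± 0.20 (q = 0.071). Pcna was at -0.33 ± 0.12 (q = 0.134), Cdkn1a at -0.43 ± 0.22 (q = 0.32), Rrm2 at -0.21 ± 0.37 (q = 0.833), Cdk1 at -0.01 ± 0.34 (q = 0.989), Top2a at -0.20 ± 0.31 (q = 0.805), Mki67 at -0.38 ± 0.67 (q = 0.833) and Ccnb1 at -0.16 ± 0.88 (q = 0.956). The median was 0.18 over S-phase and -0.07 over mitotic members. No member was called by edgeR or DESeq2 against no T cells, where 0.00793% of all genes were called (1 by edgeR, with 1186 at an unadjusted p under 0.05, and 156 by DESeq2), with medians of -0.21 and -0.54. There Mki67 was at -0.73 ± 0.66 (q = 0.8), Top2a at -0.53 ± 0.31 (q = 0.617), Ccnb1 at -0.73 ± 0.88 (q = 0.864), Cdk1 at -0.37 ± 0.33 (q = 0.798) and Pcna at -0.29 ± 0.12 (q = 0.385). Mcm6 was at -0.10 ± 0.20 (q = 0.924), Rrm2 at -0.59 ± 0.36 (q = 0.647), Ccnd1 at -0.04 ± 0.23 (q = 0.981) and Cdkn1a at 0.15 ± 0.21 (q = 0.891). Likewise no member was called by edgeR or DESeq2 against IL6Ra ko/IL21R ko T cells, where the same 0.00793% were called (1 by edgeR, with 1087 at an unadjusted p under 0.05, and 92 by DESeq2).

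With Tbet ko T cells, the nucleotide synthesis genes Tk1 and Rrm2, the E2F genes E2f1 and E2f8, the helicase gene Mcm7, the cyclin gene Ccna2, the kinase gene Cdk1 and Ube2c fell relative to both controls. These calls did not hold when the library set was fitted as a term, a fit that rests on library M4 and called no member in either comparison. Against total T cells 14 members were called, 2 higher and 12 lower, against 30.1% of all genes (14.9% higher and 15.2% lower). The members' share, 26.9%, was below the background. Of the S-phase members 6 of 23 fell (median -0.65) and of the mitotic members 6 of 26 fell and 1 rose (median -0.87), beside -0.02 for all genes. Against no T cells 12 members fell and none rose, against 7.23% of all genes (4.19% higher and 3.04% lower), a share of 23.1%. All 23 S-phase members had a log2 fold change below 0 there (median -0.87), as had 24 of 26 mitotic members (median -1.37). The 2 comparisons share the Tbet ko libraries, and each is given by its own values.

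Tk1, thymidine kinase (ENSMUSG00000025574, chromosome 11, 117815526 to 117826092, minus strand), had 4.52 and 4.24 CPM in the Tbet ko libraries. With total T cells it had 12.8, 15.6, 13.4, 19.2 and 9.17 CPM and without T cells from 9.51 to 22.5 CPM, so no library of either control was as low. It fell by 1.77 ± 0.32 against total T cells (q = 0.000348), and its log2 fold change against no T cells was -2.002 ± 0.32 (q = 0.0035). Ccna2, cyclin A2 (ENSMUSG00000027715, chromosome 3, 36564865 to 36572150, minus strand), had 2.06 and 2.47 CPM against 7.67, 11.3, 14.8, 20.1 and 6.70 CPM with total T cells and from 6.81 to 19.0 CPM without. It fell by 2.51 ± 0.46 (q = 0.00039) and by 2.98 ± 0.47 (q = 0.00323). Rrm2 had 3.34 and 4.34 CPM, also below all control libraries, and fell by 1.82 ± 0.47 (q = 0.0056) and by 2.20 ± 0.48 (q = 0.0102).

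E2f1, the activating E2F factor, had 26.7 and 25.9 CPM, against 35.1, 34.1, 36.8, 43.3 and 34.1 CPM with total T cells and from 30.8 to 46.6 CPM without. It fell by 0.52 ± 0.18 (q = 0.0285) and by 0.62 ± 0.18 (q = 0.0352). E2f8 fell by 2.24 ± 0.62 (q = 0.00826) and by 2.34 ± 0.62 (q = 0.0254). Against total T cells the spindle kinase Aurka (-1.75 ± 0.49, q = 0.00999), the checkpoint kinase Bub1b (-1.23 ± 0.39, q = 0.0194) and Pcna (-0.49 ± 0.14, q = 0.0107) also fell, as did Ube2c, Cdk1, Mcm7 and Kif11. Cenpf (1.98 ± 0.66, q = 0.0258) and Ccnd1 (0.76 ± 0.26, q = 0.0291) rose. Against no T cells the others that fell were Mcm7 (-1.46 ± 0.24, q = 0.0037), Cdc20 (-1.64 ± 0.44, q = 0.0254), Cdkn2c (-0.77 ± 0.21, q = 0.0276), Cdk1 (-1.57 ± 0.43, q = 0.0278), Mcm6 (-0.86 ± 0.24, q = 0.0323), Birc5 and Ube2c. Mki67 (1.06 ± 0.73, q = 0.288), Top2a (-0.70 ± 0.37, q = 0.162), Ccnb1 (-2.52 ± 1.23, q = 0.127), Mcm6 (-0.06 ± 0.23, q = 0.868) and Cdkn1a (-0.68 ± 0.26, q = 0.0524) were not called against total T cells. In the comparison with no T cells Mki67 was at 0.71 ± 0.71 (q = 0.601), Top2a at -1.03 ± 0.37 (q = 0.0946), Ccnb1 at -3.09 ± 1.25 (q = 0.133), Pcna at -0.44 ± 0.14 (q = 0.0514), Ccnd1 at -0.11 ± 0.27 (q = 0.864) and Cdkn1a at -0.09 ± 0.25 (q = 0.873). With 1 of the 2 Tbet ko libraries left out, 3 (without F1) and 5 (without F2) members were called against total T cells, and 0 and 2 against no T cells.

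With IFNg ko T cells 10 members were called against total T cells, 1 higher and 9 lower, against 36.9% of all genes (17.4% higher and 19.5% lower). The members' share was 19.2%. Aurka had 2.20 and 2.13 CPM, below every control library, and fell by 1.99 ± 0.51 (q = 0.00394). E2f1 had 21.4 and 25.5 CPM and fell by 0.68 ± 0.18 (q = 0.00475). Tk1 had 4.81 and 8.86 CPM and fell by 1.11 ± 0.30 (q = 0.0061). The mitotic kinase Aurkb (-1.28 ± 0.42, q = 0.0192), Cdkn1a (-0.80 ± 0.26, q = 0.0204), Pcna (-0.41 ± 0.14, q = 0.0237), Ccna2 (-1.17 ± 0.41, q = 0.0285), thymidylate synthase Tyms (-1.24 ± 0.44, q = 0.0314) and Rrm2 (-1.17 ± 0.45, q = 0.0435) fell as well, and Cenpf rose by 1.96 ± 0.66 (q = 0.0233). Not called were Mki67 (1.52 ± 0.71, q = 0.0986), Top2a (-0.06 ± 0.36, q = 0.904), Ccnb1 (-0.46 ± 1.05, q = 0.757), Cdk1 (-0.48 ± 0.40, q = 0.37), Mcm6 (0.15 ± 0.23, q = 0.632) and Ccnd1 (0.47 ± 0.26, q = 0.168). With the set as a term no member was called in this comparison or in the next.

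Against no T cells, 11 members fell with IFNg ko T cells and none rose, against 13.7% of all genes (6.87% in each direction). The members' share was 21.2%, with medians of -0.66 for S-phase (22 of 23 below 0) and -0.92 for mitotic members (21 of 26 below 0). Tk1 (-1.35 ± 0.30, q = 0.00761), E2f1 (-0.78 ± 0.18, q = 0.00813), Ccna2 (-1.65 ± 0.42, q = 0.0141), Ccnb2 (-2.23 ± 0.65, q = 0.027) and Rrm2 (-1.55 ± 0.46, q = 0.0281) had the lowest p-values. The helicase subunit Mcm5 (-0.92 ± 0.28, q = 0.0318), Aurka (-1.64 ± 0.50, q = 0.0332), Cdc20 (-1.40 ± 0.43, q = 0.0335), Tyms (-1.36 ± 0.44, q = 0.0422), the DNA methylation cofactor Uhrf1 (-1.31 ± 0.43, q = 0.0455) and Aurkb followed. Mki67 was at 1.17 ± 0.70 (q = 0.27), Top2a at -0.39 ± 0.36 (q = 0.489), Ccnb1 at -1.03 ± 1.06 (q = 0.549), Cdk1 at -0.83 ± 0.40 (q = 0.17), Pcna at -0.36 ± 0.14 (q = 0.077), Mcm6 at -0.65 ± 0.24 (q = 0.0697), Ccnd1 at -0.40 ± 0.27 (q = 0.337) and Cdkn1a at -0.21 ± 0.25 (q = 0.607). The pair of IFNg ko libraries was uneven. F1 had 14.3 CPM of Top2a, 0.550 of Ube2c and 1.10 of Nusap1, where F2 had 59.9, 7.18 and 10.8 CPM. Against total T cells 2 members were called without F1 and 18 without F2, and against no T cells 0 without F1, 21 without F2 and 5 without F2 of the group without T cells.

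With IL-17AF ko T cells the mitotic members went in both directions. Against total T cells 7 members were called, 3 higher and 4 lower, against 25.2% of all genes (12.7% higher and 12.6% lower), a share of 13.5%. E2f1 had 21.4 and 26.9 CPM, below every control library, and fell by 0.65 ± 0.18 (q = 0.0102). Tk1 (-0.99 ± 0.30, q = 0.0178), Aurka (-1.55 ± 0.49, q = 0.0216) and Pcna (-0.41 ± 0.14, q = 0.0303) fell too. The 3 that rose were Cenpf (2.26 ± 0.65, q = 0.0136), Mki67 (2.15 ± 0.70, q = 0.0274) and Cenpe, a kinetochore motor (2.01 ± 0.71, q = 0.039). Not called were Top2a (0.12 ± 0.35, q = 0.843), Ccnb1 (-0.75 ± 1.06, q = 0.65), Cdk1 (-0.46 ± 0.40, q = 0.438), Mcm6 (0.02 ± 0.23, q = 0.967), Rrm2 (-0.22 ± 0.42, q = 0.745), Ccnd1 (0.58 ± 0.26, q = 0.107) and Cdkn1a (-0.62 ± 0.26, q = 0.0825). The mitotic median was -0.04 and the S-phase median -0.47. Against no T cells Mcm7 (-1.06 ± 0.24, q = 0.0135), E2f1 (-0.75 ± 0.18, q = 0.0184) and Tk1 (-1.23 ± 0.30, q = 0.021) fell and none rose, against 6.01% of all genes (3.7% higher and 2.31% lower), with medians of -0.60 and -0.51. There Mki67 was at 1.80 ± 0.68 (q = 0.11), Top2a at -0.21 ± 0.35 (q = 0.788), Ccnb1 at -1.33 ± 1.08 (q = 0.515), Cdk1 at -0.81 ± 0.40 (q = 0.234) and Pcna at -0.37 ± 0.14 (q = 0.103). Mcm6 was at -0.78 ± 0.24 (q = 0.052), Rrm2 at -0.60 ± 0.43 (q = 0.436), Ccnd1 at -0.29 ± 0.27 (q = 0.587) and Cdkn1a at -0.04 ± 0.25 (q = 0.956). With the set as a term no member was called against either control. Without IL-17AF ko F1 or F2, 1 and 3 members were called against total T cells and none against no T cells. Without total T-cell library F1, 4 were called.

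**Figure D3:**
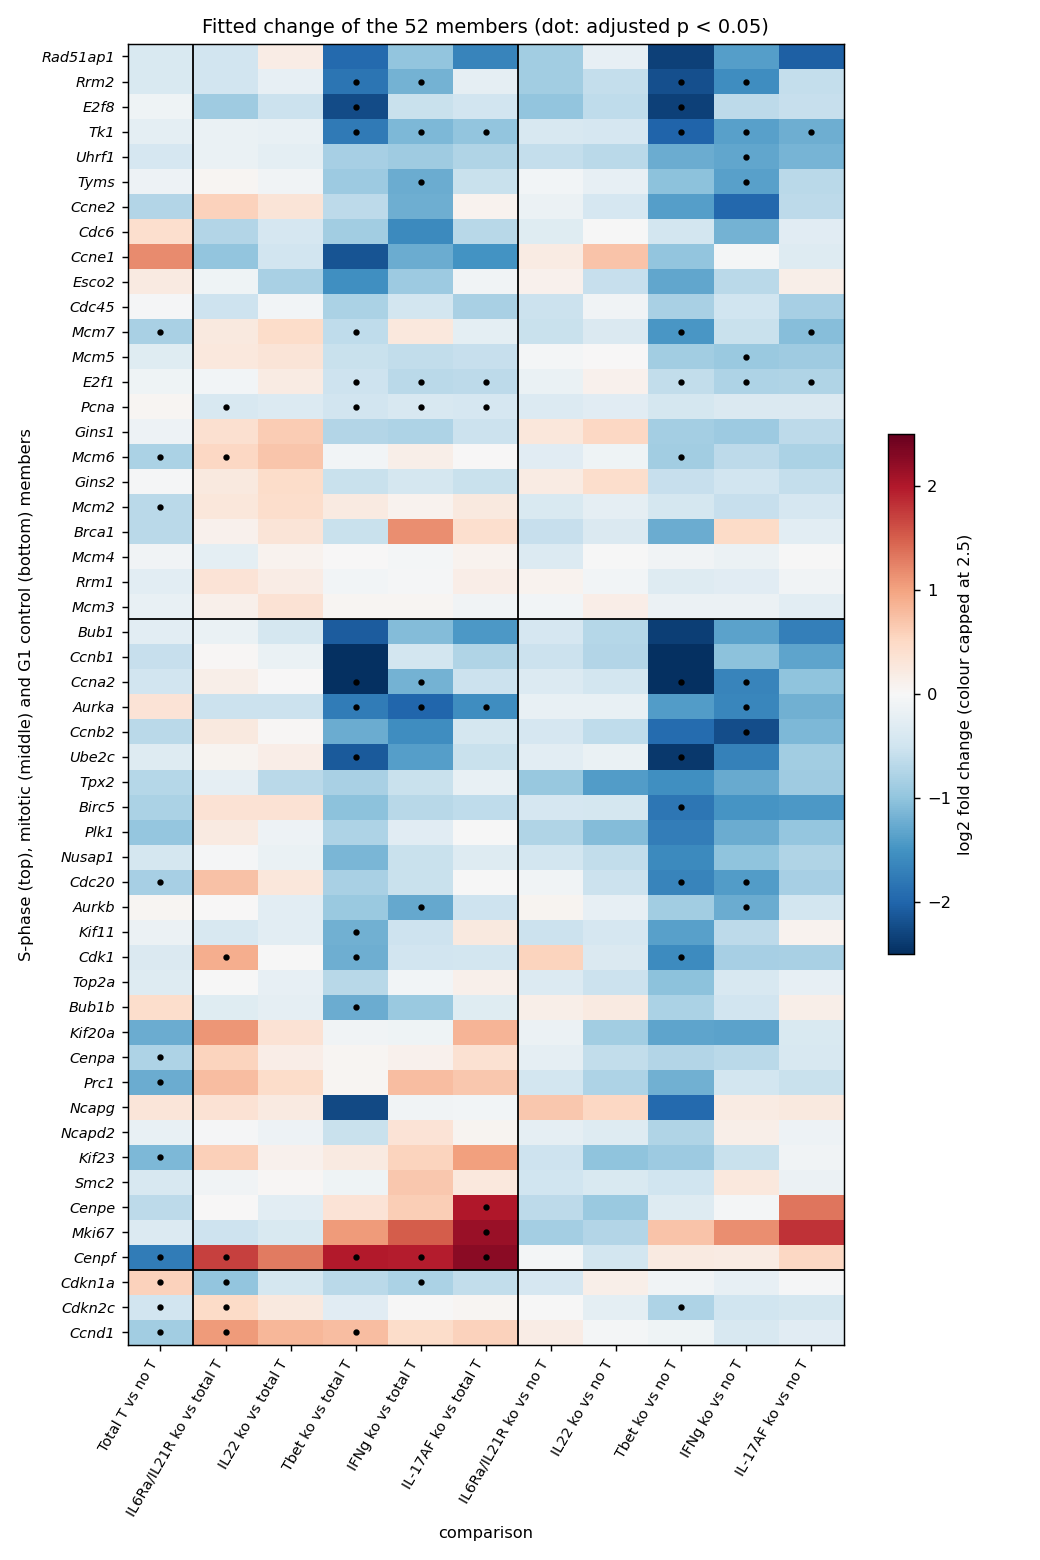
Fitted log2 fold change of the 52 members in 11 comparisons, with S-phase members on top, mitotic members in the middle and the 3 G1 members at the bottom, and a dot where the adjusted p is under 0.05. Tk1 and E2f1 carry a dot in all 6 comparisons of the Tbet ko, IFNg ko and IL-17AF ko groups with a control. Cenpf and Mki67 have the colour of a rise in the 3 comparisons of those groups with total T cells. The mitotic members as a whole go in both directions with IL-17AF ko against total T cells.

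The Tbet ko, IFNg ko and IL-17AF ko groups can be compared with each other within set C. No member was called between IFNg ko and Tbet ko or between IL-17AF ko and Tbet ko, where edgeR called 0 genes in all (441 and 180 at an unadjusted p under 0.05), or between IL-17AF ko and IFNg ko, where it called 2 genes (0.0159%, 776 at an unadjusted p under 0.05). The mitotic median was 0.80 for IL-17AF ko against Tbet ko, with 26 of 26 members above 0. It was 0.47 for IFNg ko against Tbet ko and 0.33 for IL-17AF ko against IFNg ko, each with 21 of 26 above 0. The S-phase medians were 0.20, 0.08 and 0.09. DESeq2 called no member in these 3 comparisons either. With 2 libraries a group, none of the single differences passed the test, and Rrm2 (1.60 ± 0.52 for IL-17AF ko against Tbet ko) had an adjusted p of 1.

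Mki67, the Ki-67 gene, had its highest levels in set C. Its level was 47.1 and 33.6 CPM in the IL-17AF ko and 11.3 and 40.6 CPM in the IFNg ko libraries. In the Tbet ko libraries it was 15.1 and 22.8 CPM. IFNg ko F1 and Tbet ko F1 lay below library M1 of the group without T cells (18.5 CPM). In the IL6Ra ko/IL21R ko group the set C library M4 had 31.1 CPM, where the other 6 had from 0.913 to 6.87 CPM. Cenpe had 5.63 CPM in M4 against from 1.05 to 2.77 CPM in the other 6. In the same library Pcna (74.3 CPM), Aurka (4.16 CPM) and E2f1 (25.8 CPM) were the lowest of the group.

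Transcript length moved with these differences. Over 12059 tested genes with a coding transcript, the difference of mean log2 CPM between sets C and B had a Spearman correlation with the length of the longest coding transcript of 0.507, across genes, which are not independent replicates. The median difference ran from -0.59 for 564 genes of up to 1000 bases to 0.74 for 674 genes over 8000 bases. The correlation was 0.655 over the 26 mitotic and 0.460 over the 23 S-phase members, and for sets A and B it was 0.0747 over all genes. Cenpf (11130 bases), Mki67 (10061) and Cenpe (7910) are the longest mitotic members, and they differed between sets C and B by 0.65, 2.25 and 0.97. Short members lay below 0, with Pcna (1518 bases) at -0.15 and Tk1 (1440 bases) at -1.01. Only 2 of 23 S-phase members (median -0.51) and 7 of 26 mitotic members (median -0.34) lay above 0, against 5673 of the 12059 genes (median -0.04).

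**Figure D4:**
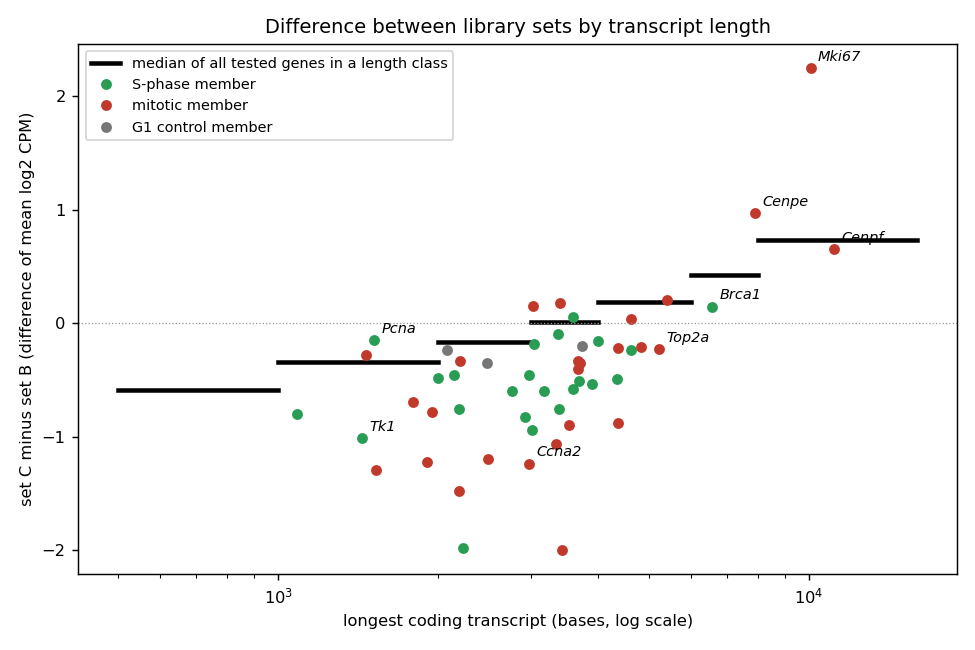
Difference of mean log2 CPM between the 7 set C and the 13 set B libraries against the longest coding transcript (bases, log axis), 1 point per member, with bars for the median of all tested genes in a length class. Mki67, Cenpe and Cenpf lie at the long end with differences of 2.25, 0.97 and 0.65, and most shorter members lie below 0.

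A length correction, chosen after the data were seen, was fitted as an offset in the same model. With it, no member was called higher in the 3 set C groups against total T cells, and Cenpf was at 1.22 (Tbet ko, q = 0.188), 1.03 (IFNg ko, q = 0.252) and 1.51 (IL-17AF ko, q = 0.11), while Mki67 was at 1.44 (IL-17AF ko, q = 0.113). Pcna went to -0.01 (Tbet ko, q = 0.949), 0.11 (IFNg ko, q = 0.508), 0.06 (IL-17AF ko, q = 0.762) and -0.14 (IL6Ra ko/IL21R ko, q = 0.215). Ccna2 (-2.47, q = 0.000588), Tk1 (-1.28, q = 0.00449), Rrm2 (-1.60, q = 0.015) and E2f8 (-2.35, q = 0.00842) stayed called in Tbet ko against total T cells. E2f1 stayed called with IFNg ko (-0.58, q = 0.0144) and IL-17AF ko T cells (-0.56, q = 0.0269) and not with Tbet ko T cells (-0.43, q = 0.072). The number of members called against total T cells went from 14 to 9 (Tbet ko, 17.3%), from 10 to 6 (IFNg ko, 11.5%) and from 7 to 1 (IL-17AF ko, 1.92%), where 24.5%, 31.0% and 18.5% of all genes were called.

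The library set was also fitted as a term, again chosen after the data were seen, although set C is tied to the rest by M4 alone. In that fit edgeR called none of the members in the 6 comparisons of the Tbet ko, IFNg ko and IL-17AF ko groups with a control, where between 0 and 46 of all genes were called and between 722 and 1560 had an unadjusted p under 0.05. With Tbet ko T cells, Ccna2 was at -2.85 (q = 0.0819) against total T cells and at -3.39 (q = 0.0657) against no T cells, and Tk1 at -1.52 (q = 0.242) and -1.76 (q = 0.316). Mki67 went from 2.15 to -0.76 (q = 0.97) and Cenpe from 2.01 to -0.14 (q = 1) with IL-17AF ko against total T cells. Pcna was at -0.08 (q = 0.964) with Tbet ko and at -0.01 (q = 1) with IL-17AF ko against total T cells. The mitotic medians against no T cells were -1.74 (Tbet ko), -1.06 (IFNg ko) and -0.78 (IL-17AF ko), and the S-phase medians -0.91, -0.55 and -0.50.

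Markers of other cells and states moved with the same comparisons. Against total T cells, 9 of 10 monocyte-derived markers fell with Tbet ko (median -6.16), 8 with IFNg ko (median -5.46) and 7 with IL-17AF ko T cells (median -4.08). Their sums were from 427 to 452, from 362 to 365 and from 548 to 604 CPM, below those of every total T-cell library. Of 12 border macrophage markers 9, 10 and 6 rose. When the control had no T cells, 1 monocyte-derived marker fell in each of the 3 comparisons, and 0, 1 and 0 border macrophage markers rose. Fibroblast markers also moved with set C. Their 8 genes summed to between 2267 and 3686 CPM in its 7 libraries and to between 256 and 1487 CPM in the other 20. Border macrophage markers summed to between 12475 and 17147 CPM in set C and to between 2168 and 15218.5 CPM in the other 20, so these ranges overlapped. The part of these cells in the members' differences was not tested.

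Sex was spread unevenly over the groups, and no member was called between males and females, where 0.0555% of all genes were called (0.0317% higher and 0.0238% lower in males; 7, with 916 at an unadjusted p under 0.05). Of the S-phase members 21 of 23 and of the mitotic members 21 of 26 had a fitted difference below 0 in males. The medians were -0.37 and -0.25, beside 0.003 for all genes tested. Cdk1 (-0.90 ± 0.23, q = 0.468) and Mcm7 (-0.49 ± 0.13, q = 0.468) had the lowest q of the members. DESeq2 called none. Over the 7 groups together, 20 of the 52 members were called for any difference (9 S-phase, 8 mitotic and the 3 G1 members), a share of 38.5% that equals the 38.5% of all genes tested.

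Other genes of the cycle, in 4 further lists, showed how far the members stand for their pathway. With total T cells against no T cells, none of 42 other replication genes was called, and of 51 other mitotic genes 1 rose and 4 fell (9.8%, against 21.2% of all genes). Incenp, the scaffold of the Aurkb complex (-0.83 ± 0.20, q = 0.00458), and Anln, an anillin of the cleavage furrow (-0.80 ± 0.21, q = 0.00818), fell, and the separase gene Espl1 rose (0.52 ± 0.14, q = 0.0111). Of 22 other G1 regulators and brakes 5 rose and 2 fell (31.8%). Lin54, the CHR-binding subunit of the DREAM complex, rose by 1.498 ± 0.23 (q = 8.74e-05), and the brake Cdkn1c fell by 1.03 ± 0.19 (q = 0.000438). Of 19 p53 target genes 3 rose and 1 fell, which is 21.1% against the 21.2% of all genes: Mdm2, which degrades p53, rose by 0.77 ± 0.13 (q = 0.000216) and Gadd45a by 1.48 ± 0.30 (q = 0.0013), and Sesn1 fell by 1.06 ± 0.21 (q = 0.0011).

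With Tbet ko against total T cells, 5 of the 42 other replication genes fell and 1 rose (14.3%), and 15 of the 51 other mitotic genes fell and 2 rose (33.3%, with a median of -1.09), against 30.1% of all genes. Chaf1b, a histone chaperone subunit at the fork, fell by 2.03 ± 0.37 (q = 0.00039) and the clamp loader subunit Rfc2 by 0.77 ± 0.20 (q = 0.00475), and the DNA methyltransferase Dnmt1 rose by 1.18 ± 0.28 (q = 0.0029). Tubb5, a tubulin (-0.83 ± 0.16, q = 0.000596), Espl1 (-0.82 ± 0.21, q = 0.00492) and Hmgb2 (-1.97 ± 0.52, q = 0.00659) fell. Of the G1 regulators 3 rose and 4 fell (31.8%), with Cdkn1c at 1.51 ± 0.24 (q = 0.000121), the antiproliferative Btg1 at -1.53 ± 0.27 (q = 0.000307) and E2f2 at -2.96 ± 0.55 (q = 0.000469). Of the p53 targets 1 rose and 5 fell (31.6%), with Mdm2 at -1.43 ± 0.19 (q = 2.85e-05), Gadd45a at -2.36 ± 0.48 (q = 0.00095) and Pmaip1 at -1.17 ± 0.31 (q = 0.00631). With the library set as a term, a fit that rests on library M4, only 6 of all genes were called in this comparison.

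Against no T cells, 10 other mitotic genes fell with Tbet ko (19.6%, against 7.23% of all genes) and 7 with IFNg ko T cells (13.7%, against 13.7%), and none rose. The spindle protein Knstrn (-2.28 ± 0.49, q = 0.0097, and -1.81 ± 0.48, q = 0.0164) and the microtubule protein Stmn1 (-2.68 ± 0.63, q = 0.0142, and -2.495 ± 0.62, q = 0.012) fell in both. Foxm1, the factor that acts at mitotic promoters, fell with Tbet ko (-2.17 ± 0.52, q = 0.016) and Hmgb2 with IFNg ko T cells (-2.08 ± 0.53, q = 0.0135). Of the replication genes 1 fell with Tbet ko (Chaf1b, -1.52 ± 0.36, q = 0.0143) and 3 with IFNg ko T cells (Dbf4, Rfc3 and Rpa2). Of the G1 regulators E2f2 fell in both (-2.02 ± 0.52, q = 0.0219, and -2.16 ± 0.53, q = 0.0112), and Btg1 (-0.97 ± 0.26, q = 0.0182) and Cdk4 (-0.54 ± 0.15, q = 0.0193) fell with IFNg ko T cells. Mdm2 fell in both (-0.66 ± 0.18, q = 0.032, and -0.63 ± 0.18, q = 0.027), Plk2 rose with Tbet ko (0.78 ± 0.23, q = 0.0411) and Pmaip1 fell with IFNg ko T cells (-0.93 ± 0.30, q = 0.0414). None of these calls against no T cells held with the library set as a term. That fit, which rests on library M4, called 0 of all genes in either comparison.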

How the data were processed

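RNA of sorted dural macrophages was sequenced as 75-nt single-end total RNA libraries without strand, per the labels' protocols. STAR 2.4.0j, featureCounts and DESeq2 1.20.0 with GRCm38 are named in the submitters' processing notes. The authors deposited 1 table of counts for 27 libraries. It is named as normalized, but every whole number from 1 to 20 occurs in each column and the totals differ, so the values were used as raw counts. Identifiers without a symbol held from 0.0859% to 0.121% of a library's counts. Genes whose normalized count averaged 10 or more were kept. The test was edgeR 4.0.16 quasi-likelihood (R 4.3.3) with TMM scaling, group and sex as terms over all libraries, and Benjamini-Hochberg adjustment over 12612 genes. CPM values are TMM-scaled, and log2 levels carry a prior count of 0.5. DESeq2 1.42.0 was run as an alternative, with other filters, scalings and subsets of libraries, and the model was tested on simulated data. Full values were given for 9 fixed members (Mki67, Top2a, Ccnb1, Cdk1, Pcna, Mcm6, Rrm2, Ccnd1 and Cdkn1a) in the comparisons with a control group (not all in the others), for up to 10 called members per comparison with the lowest p, and, in the 3 comparisons with most calls, for up to 3 genes of each other list. The members and lists were chosen with earlier results of these data known. The sort markers were not stated in the labels. The result of a single gene of the other lists is left out.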

Additional observations from a re-analysis of the deposited data

Results flagged for a closer look

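Each library's level of each of the members, its S-phase level, its mitotic level and their difference were compared with the rest of its group in groups of 4 to 10 libraries, and 17 levels lay farther from the others than Dixon's 95% limit, out of 165 combinations of a group and a measure. Chance gives about 1 in 20.

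In the group without T cells, library M2 was the lowest for Mcm2 (25.07 CPM, the others from 38.9 to 50.5), Ccna2 (6.814 CPM, the others from 15.3 to 19.0), Bub1 (1.093 CPM, the others from 5.65 to 11.0) and Birc5 (3.664 CPM, the others from 11.0 to 18.3). Library M1 was the highest for E2f8 (18.67 CPM, the others from 4.845 to 7.42). Ccne2 was lowest in F3 (0.6922 CPM, the others from 2.55 to 5.39), and Ccnb1 had 0 counts in F4 (the others from 1.29 to 7.002 CPM).

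With total T cells, Mcm4 was highest in F3 (61.54 CPM, the others from 38.0 to 42.9) and Esco2 lowest in F1 (1.018 CPM, the others from 2.47 to 3.21).

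With IL6Ra ko/IL21R ko T cells, library M3 was the lowest for Uhrf1 (6.138 CPM, the others from 9.95 to 12.9), Prc1 (3.836 CPM, the others from 7.13 to 11.2), Smc2 (9.207 CPM, the others from 14.8 to 20.95) and Ncapd2 (13.52 CPM, the others from 20.5 to 27.7). Library M4 was the lowest for Pcna (74.32 CPM, the others from 86.9 to 96.4) and Aurka (4.163 CPM, the others from 5.91 to 7.54). Library M2 was the highest for Nusap1 (15.85 CPM, the others from 4.96 to 7.75) and the lowest for Ncapg (0.3848 CPM, the others from 2.01 to 6.04).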

How the results depend on the processing

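Each count of called members was recomputed under other settings, as was each phase difference: 234 values stayed within 1.5 times the reported count or 1 SD, and 72 did not. Leaving out 1 library cannot move a group mean by 1 SD of its group. The phase differences with 1 library left out were therefore bound to fall among the 234 and say nothing about stability. The cause of a change was not tested. For total T cells against no T cells, where 11 were called, a fit of the females gave 6, one of set A 6 and one of set B 0. For IL6Ra ko/IL21R ko against total T cells (7), the fit without sex gave 4, females alone 3, the set as a term 3 and set B alone 2. Without the filter on low counts, the comparisons that had 0 calls gave 3 (IL22 ko against total T cells), 5 (IL6Ra ko/IL21R ko against no T cells), 2 (IL22 ko against no T cells), 1 (IL22 ko against IL6Ra ko/IL21R ko), 1 (IL-17AF ko against Tbet ko) and 4 (sex), and IL-17AF ko against no T cells went from 3 to 6. DESeq2's Wald test gave 2 for IL22 ko against total T cells, 2 for IL6Ra ko/IL21R ko, 22 for Tbet ko and 6 for IL-17AF ko against no T cells, and DESeq2's size factors gave 1 for IL6Ra ko/IL21R ko against no T cells. With the filter raised to 50, the counts against no T cells were 1 (IL6Ra ko/IL21R ko) and 5 (IL-17AF ko). Without the sex term they were 1 (IL6Ra ko/IL21R ko), 6 (Tbet ko), 5 (IFNg ko) and 1 (IL-17AF ko), and with females alone 6 (IFNg ko) and 6 (IL-17AF ko). The length correction gave 9, 6 and 1 for Tbet ko, IFNg ko and IL-17AF ko against total T cells, and 7, 6 and 2 against no T cells. The set term joined by M4 gave 0 in these 6 comparisons. Pcna changed sign under the length correction, to 0.11 (IFNg ko) and 0.062 (IL-17AF ko) against total T cells, as did Mki67 (-0.76) and Cenpe (-0.14) in IL-17AF ko against total T cells under that set term.

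Leaving out 1 library at a time gave from 5 to 12 calls for total T cells against no T cells. Against total T cells it gave from 4 to 9 (IL6Ra ko/IL21R ko), 0 to 2 (IL22 ko), 3 to 15 (Tbet ko), 2 to 18 (IFNg ko) and 1 to 9 (IL-17AF ko). Against no T cells it gave 0 to 1 (IL6Ra ko/IL21R ko), 0 (IL22 ko), 0 to 13 (Tbet ko), 0 to 21 (IFNg ko) and 0 to 5 (IL-17AF ko). It gave 0 to 1 for IL22 ko against IL6Ra ko/IL21R ko and 0 to 2 for IL-17AF ko against IFNg ko. A group with 1 library left is assumed to vary like the others. Over members that pass this filter of 50, the S-phase level minus the mitotic level was 0.794 (no T cells), 1.07 (total), 1.12 (Tbet ko), 1.14 (IFNg ko), 0.823 (IL6Ra ko/IL21R ko), 0.723 (IL-17AF ko) and 1.2 (IL22 ko). Since all members passed the filter, the planned level over all members is the reported one, and DESeq2 was not run for the test of any difference. No paired analysis was possible because the table's columns carry no replicate number that joins libraries across groups. Depth limits the precision most for the 27 members with a median under 10 CPM.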
